A study of Homo sapiens with 12 samples.

Results

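The 6 prostate luminal lineage transcription factors described here are FOXA1, HOXB13, GATA2, GRHL2, SPDEF and CREB3L4. They were taken by gene symbol from a table of 63568 genes, and all 6 were found. The mRNA was measured by RNA-seq in LNCaP, an androgen-sensitive human cell line derived from a lymph node metastasis of prostate cancer, grown in T-medium with foetal bovine serum. Cells were transfected with a non-targeting control siRNA pool (si-NT) or with 1 of 2 siRNAs against SMARCA4, the gene encoding BRG1. They were collected at 72 h post-transfection, or at 144 h after being split and transfected a further time at 72 h. There were 2 si-NT libraries and 4 libraries of BRG1 depleted cells (2 for each siRNA) at each time point, which gives 12 libraries in all. The siRNAs are called siRNA 2 and siRNA 3, as in the deposited table. The model is a single cell line with transient depletion, and its labels do not say whether replicates were separate cultures, so p-values measure the spread between these libraries, which may be technical. The question was whether the mRNAs that mark luminal identity were kept after SMARCA4 depletion.

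Luminal cells of the prostate are secretory epithelial cells that line the gland and respond to androgen. FOXA1 is a forkhead pioneer factor that binds closed chromatin and opens enhancers to other factors, and GATA2 and HOXB13 act with it at many of the same elements. GRHL2, a grainyhead factor, activates genes of cell junctions such as CDH1, while SPDEF is an ETS factor of secretory epithelium. CREB3L4 is a transcription factor of the CREB3 family that is held in the membrane of the endoplasmic reticulum and is abundant in prostate. BRG1 is an ATPase of the SWI/SNF chromatin remodelling complex, which moves nucleosomes at promoters and enhancers.

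On GRCh37, FOXA1 lies at chr14:38058757-38065264 and HOXB13 at chr17:46802125-46806112, both on the minus strand. GATA2 lies at chr3:128198270-128212044 on the minus strand, and GRHL2 at chr8:102504667-102681954 on the plus strand. SPDEF lies at chr6:34505579-34524110 on the minus strand, and CREB3L4 at chr1:153940010-153946837 on the plus strand. All are protein-coding genes. Exons of SLC39A1 and JTB, which run on the opposite strand, overlap 9.6% and 3.2% of the exonic bases of CREB3L4, and the strand setting of the read counting is not given in the sources used here, so the CREB3L4 values are less certain. Overlaps of FOXA1, GATA2 and GRHL2 with other genes cover 0.4%, 1.6% and 0.8% of their exonic bases, and SPDEF and HOXB13 have none.

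RefSeq promoter windows (GRCh38.p14) were given for 4 of the 6 genes. The 250 bases before the start site of SPDEF and FOXA1 are shown because these genes had the largest and the smallest change at 144 h. The SPDEF window is chr6:34556330-34556579 and the FOXA1 window is chr14:37595250-37595499, both read 5′ to 3′ on the minus strand. Capitals mark the forkhead core that was found in each.

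SPDEF: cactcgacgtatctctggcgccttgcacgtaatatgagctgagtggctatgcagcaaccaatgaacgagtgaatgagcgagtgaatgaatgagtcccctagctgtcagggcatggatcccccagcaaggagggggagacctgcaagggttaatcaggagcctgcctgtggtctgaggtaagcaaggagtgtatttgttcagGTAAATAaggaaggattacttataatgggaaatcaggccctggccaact

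FOXA1: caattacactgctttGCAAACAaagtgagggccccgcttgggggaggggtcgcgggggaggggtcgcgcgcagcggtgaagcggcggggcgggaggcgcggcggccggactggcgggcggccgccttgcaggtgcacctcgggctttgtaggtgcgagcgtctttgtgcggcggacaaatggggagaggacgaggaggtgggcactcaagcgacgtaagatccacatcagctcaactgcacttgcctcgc

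The windows differed in base composition. SPDEF had a GC content of 50.8% with 6 CpG sites and FOXA1 had 67.2% with 26, against a median GC content of 58.0% over 34943 promoter windows. Both strands were searched for 6 motifs, chosen with the sequences known. The forkhead cores were TATTTAC or TGTTTAC, together with TATTTGC or the variant TGTTTGC. The GATA motif was AGATAA, while for grainyhead factors it was AACNGGTT. For ETS factors CCGGAA or the variant CCGGAT was searched, for the cAMP response element its core TGACGT, and for HOXB13 the motif CCAATAAA. The SPDEF window held TATTTAC on its reverse strand, at positions -49 to -43 from the start site, and the FOXA1 window held TGTTTGC on its reverse strand, at positions -235 to -229. A forkhead core stood in 10.6% of all windows, and the other motifs in 9.19% (GATA), 1.49% (grainyhead), 18.7% (ETS), 7.09% (cAMP response element) and 0.864% (HOXB13). GATA2, with a pair of windows, and CREB3L4 held 0 matches.

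SMARCA4 was low in every library of BRG1 depleted cells. It stood at 97.0 and 73.4 TPM, a length-scaled share of all transcripts, in si-NT at 72 h, at 21.7 and 19.02 with siRNA 2 and at 17.5 and 19.1 with siRNA 3. At 144 h it stood at 94.5 and 107 TPM in si-NT, at 15.9 and 16.2 with siRNA 2 and at 11.4 and 17.4 with siRNA 3. The means fell by 77.3% and 84.9%, and the log2 fold changes of -2.07 and -2.66 had limma adjusted p-values of 0.000538 and 1.01e-05. Values in TPM sum to between 999999 and 1000001 per library and hold no read depth, so the depth is unknown. The ERCC spike-ins took from 0.805% to 1.97% of TPM, most in replicate 2 of siRNA 3 at 144 h, and from 14706 to 15355 genes reached 1 TPM.

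In si-NT cells FOXA1 was the most abundant of the 6 mRNAs, at 178.9 ± 6.19 TPM (SD, n = 4, both time points). It was followed by HOXB13 at 136.3 ± 16.1 TPM and by GATA2 at 97.3 ± 6.95 TPM. SPDEF at 93.0 ± 9.06 TPM and CREB3L4 at 83.9 ± 5.17 TPM came next, and GRHL2 was lowest at 35.3 ± 2.99 TPM. The ranges of FOXA1, HOXB13 and GRHL2 overlapped with those of no other member, whereas GATA2, SPDEF and CREB3L4 overlapped with their neighbours. All were well expressed, from percentile 76.2 (GRHL2) to 95.6 (FOXA1) of the 16337 genes tested. TPM is scaled by transcript length, so these levels can be set side by side between genes.

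**Figure D1:**
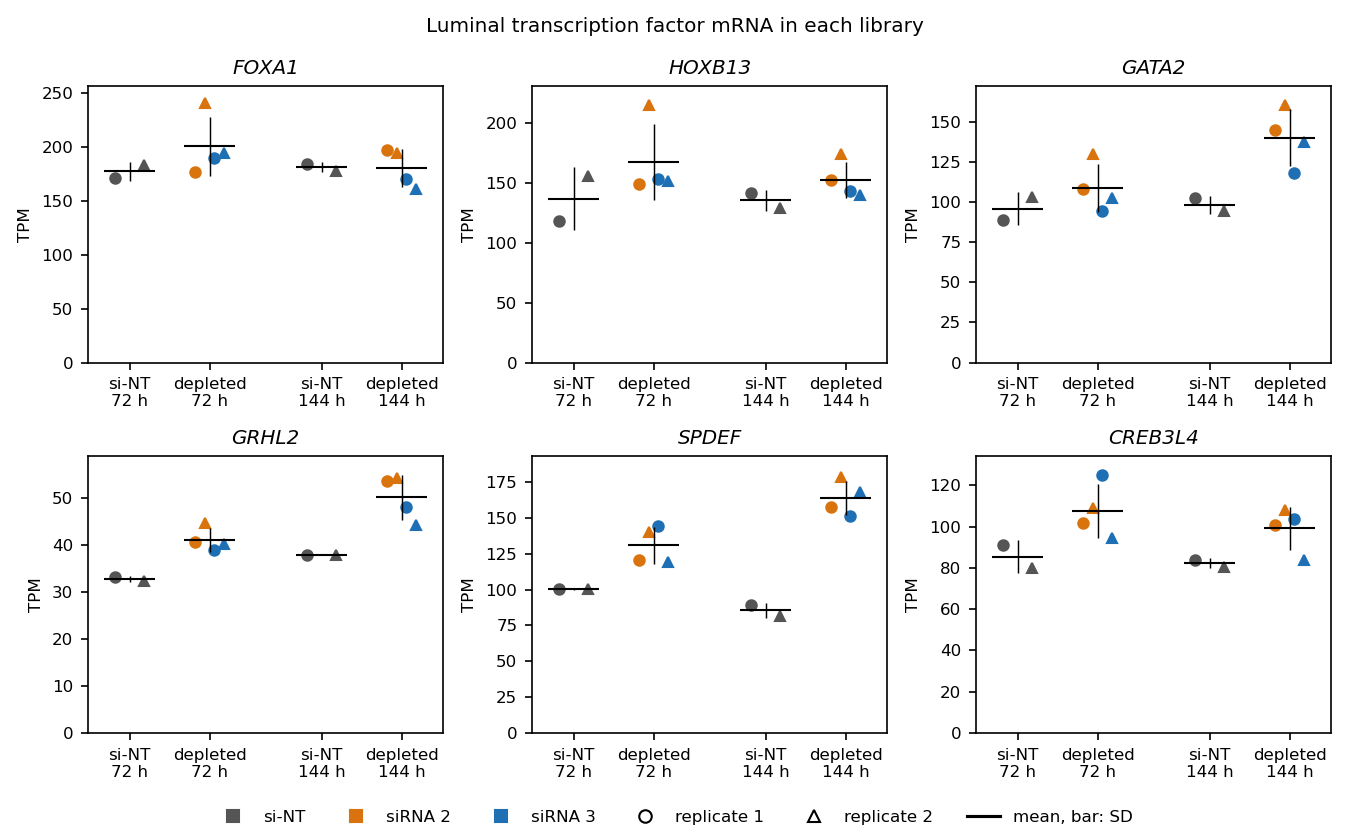
TPM of each of the 6 factors in the 12 libraries (y axes start at 0), by group on the x axis, with horizontal lines for the group mean and vertical bars for the SD. All BRG1 depleted libraries of SPDEF and GRHL2 lie above those of si-NT at the same time, while FOXA1 overlaps at both time points.

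FOXA1 overlapped between BRG1 depleted and si-NT cells at both time points. At 72 h it was at 171 and 183 TPM in si-NT, 177 and 239.9 with siRNA 2, and 189 and 194 with siRNA 3. At 144 h it was at 184 and 177 TPM in si-NT, 197 and 194 with siRNA 2, and 169.8 and 160.4 with siRNA 3. The siRNA 2 libraries were above and the siRNA 3 libraries below both si-NT libraries at 144 h. The log2 fold change was 0.17 ± 0.12 (SE) at 72 h, with an adjusted p of 0.597 in limma, and -0.01 ± 0.12 at 144 h, with an adjusted p of 0.966. Without replicate 2 of siRNA 2 the 72 h value was 0.08. The 95% confidence interval at 144 h ran from a fall of 17.6% to a rise of 19.8%. The sign at 144 h had no firm side: quantile normalisation gave 0.0083, and scaling to the ERCC spike-ins gave -0.41.

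HOXB13, the posterior homeobox factor, was also not called at either time point. It was at 118 and 156 TPM in si-NT at 72 h, 149 and 215 with siRNA 2, and 154 and 152 with siRNA 3. At 144 h the values were 142 and 129 TPM in si-NT, 153 and 174 with siRNA 2, and 143 and 140.5 with siRNA 3. The groups overlapped at both times, and replicate 2 of siRNA 2 at 72 h stood far above the rest. The log2 fold changes were 0.28 ± 0.16 (limma adjusted p = 0.462) and 0.17 ± 0.16 (adjusted p = 0.487), and the latter was -0.23 with ERCC scaling. At 72 h the value was 0.09 without replicate 1 of si-NT, 0.48 without replicate 2 of si-NT and 0.16 without replicate 2 of siRNA 2. At 144 h it was 0.10 without replicate 2 of si-NT or of siRNA 2. At 144 h the interval ran from 0.881-fold to 1.43-fold.

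GATA2 overlapped with si-NT cells at 72 h and was above them at 144 h. At 72 h it was at 88.8 and 103 TPM in si-NT, 108 and 129.9 with siRNA 2, and 94.8 and 103 with siRNA 3, which overlap. At 144 h the si-NT libraries had 102 and 94.5 TPM, and those of BRG1 depleted cells 145 and 161 (siRNA 2) and 118 and 138 (siRNA 3), all above both. The change was 0.17 ± 0.14 on the log2 scale at 72 h (limma adjusted p = 0.634) and 0.50 ± 0.14 at 144 h (adjusted p = 0.0237), a fold of 1.41 with an interval from 1.14 to 1.75. The 72 h value was 0.06 or 0.28 without replicate 1 or replicate 2 of si-NT, and 0.09 without replicate 2 of siRNA 2. The 144 h call was lost without replicate 1 of si-NT at 144 h (adjusted p = 0.0852), without replicate 2 (0.184) and without replicate 1 of siRNA 2 (0.0506), and with no filter on low genes (0.0527). Over all alternatives the adjusted p ran from 0.00371 to 0.867, the highest with ERCC scaling, where the log2 fold change was 0.10.

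GRHL2 was called higher at 144 h and missed the threshold at 72 h. It was at 33.3 and 32.2 TPM in si-NT at 72 h, 40.6 and 44.7 with siRNA 2, and 38.9 and 40.2 with siRNA 3. At 144 h it was at 37.8 and 37.9 TPM in si-NT, 53.7 and 54.3 with siRNA 2, and 48.0 and 44.3 with siRNA 3. BRG1 depleted and si-NT libraries did not overlap at either time. The log2 fold change of 0.32 ± 0.10 at 72 h did not pass (limma adjusted p = 0.151), and that of 0.39 ± 0.10 at 144 h did (adjusted p = 0.0150), a fold of 1.31 (interval 1.13 to 1.52) that turned to a log2 fold change of -0.01 with ERCC scaling. Without replicate 1 or replicate 2 of si-NT at 144 h the adjusted p was 0.0945 or 0.111, and over all alternatives it ran from 0.00121 to 0.994.

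SPDEF had the largest difference of the 6. At 72 h it was at 100.1 and 100.6 TPM in si-NT, 120.5 and 140.0 with siRNA 2, and 144 and 119 with siRNA 3. At 144 h it was at 89.3 and 81.8 TPM in si-NT, 157 and 179 with siRNA 2, and 151 and 168 with siRNA 3. All 4 depleted libraries at 144 h were also above all 4 at 72 h, which held for 5.71% of all genes and for 1 of the 6 members. The log2 fold change was 0.38 ± 0.10 at 72 h (limma adjusted p = 0.103) and 0.93 ± 0.10 at 144 h (adjusted p = 0.00019), a fold of 1.90 with an interval from 1.63 to 2.22. This call held whichever library was left out (0.87 to 0.99), and was lost with ERCC scaling (0.53, interval -0.11 to 1.17, adjusted p = 0.311).

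CREB3L4 was slightly higher on average in BRG1 depleted cells without passing the test. It was at 91.2 and 79.9 TPM in si-NT at 72 h, 102 and 109 with siRNA 2, and 125 and 94.7 with siRNA 3, which do not overlap. At 144 h it was at 84.0 and 80.5 TPM in si-NT, 101 and 108 with siRNA 2, and 104 and 84.0 with siRNA 3, so that the lowest depleted library tied with a si-NT library. The log2 fold changes were 0.33 ± 0.13 (limma adjusted p = 0.247) and 0.26 ± 0.13 (adjusted p = 0.156), and the latter was -0.14 with ERCC scaling.

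Taking the 6 factors as a list, 0 were called at 72 h, where 1.68% of all genes were (1.13% higher and 0.557% lower), and 3 had an unadjusted p under 0.05 (14.3% of all genes). At 144 h, 3 of 6 were called higher (13.6% of all genes) and 0 lower (10.8%). The same 3 had an unadjusted p under 0.05, against 36.8% of all genes, and the median of the 6 log2 fold changes was 0.33 against 0.03 over all genes tested. All depleted libraries were above both si-NT libraries for 3 of 6 factors at 72 h (GRHL2, SPDEF and CREB3L4), which held for 16.3% of all genes, and for 3 of 6 at 144 h (GATA2, GRHL2 and SPDEF), which held for 26.1%. The depleted libraries were below both for 0 of 6 at either time, against 6.93% and 22.5% of all genes. The 6 mRNAs summed to 628.7 ± 37.2 TPM in si-NT at 72 h (n = 2) and 756.3 ± 84.5 in depleted cells (n = 4), and to 620.5 ± 27.2 and 786.4 ± 65.4 at 144 h. In bulk RNA, fewer cells of a type and less RNA per cell cannot be told apart.

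**Figure D2:**
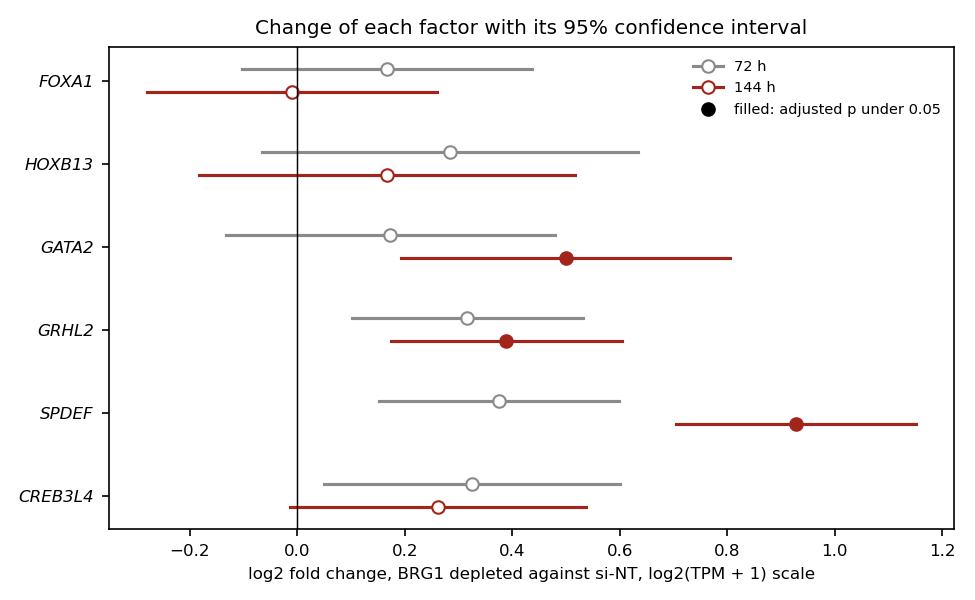
Log2 fold change of each factor in BRG1 depleted against si-NT cells on the log2(TPM + 1) scale (x axis) at 72 h and 144 h, with lines for the 95% confidence interval and filled points for an adjusted p under 0.05. At 144 h, 3 of 6 intervals lie above 0 and pass the test (GATA2, GRHL2 and SPDEF), of which GRHL2 turned to -0.01 when scaled to the ERCC spike-ins.

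Prolonged depletion was compared with the shorter one directly. The difference between the changes at 144 h and 72 h was called for 0 of the 6 factors and for 0.0184% of all genes. It was largest for SPDEF, at 0.55 ± 0.14 on the log2 scale (interval 0.24 to 0.87, unadjusted p = 0.00258, limma adjusted p = 0.241). For GATA2 it was 0.33 (interval -0.11 to 0.76) and for FOXA1 -0.18 (interval -0.56 to 0.21). Among depleted cells alone, 144 h against 72 h, 0 of 6 were called (4.27% of all genes). SPDEF at 0.32 (adjusted p = 0.0523), GRHL2 at 0.28 (0.0761) and GATA2 at 0.36 (0.0956) were nearest to the threshold. Without replicate 2 of siRNA 2 at 72 h, SPDEF and GATA2 passed. In si-NT cells 0 of 6 factors differed between the time points in limma, where 0.0% of all genes did, and 0 of 6 had an unadjusted p under 0.05, against 4.11% of all genes. The intervals there still allowed sizeable differences, from -0.49 to 0.03 for SPDEF and from -0.04 to 0.45 for GRHL2.

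The siRNAs were also compared with each other. The direct comparison of siRNA 3 with siRNA 2 called 0 of 6 factors at 72 h (0.141% of all genes) and 0 of 6 at 144 h (0.331%). At 144 h all 6 were lower on average with siRNA 3, where the median gene was also lower, at -0.10 on the log2 scale. GRHL2 was at -0.22 (interval -0.42 to -0.02, unadjusted p = 0.0312, limma adjusted p = 0.330), GATA2 at -0.26 and FOXA1 at -0.24. For SPDEF the difference was -0.07 with an interval from -0.35 to 0.20.

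The calls of GRHL2, GATA2 and SPDEF were made with median-of-ratios size factors and with quantile normalisation too (3 of 6 with each), and were lost with ERCC scaling. TPM sets all libraries to 1 total, whereas the spike-ins were added to a fixed mass of total RNA. Scaled to them, the median gene was at -0.31 at 144 h against 0.03 in TPM, and 0 of 6 factors were called at either time. The split of all calls moved from 2222 higher and 1761 lower to 138 higher and 614 lower at 144 h. At 72 h it moved from 184 and 91 to 8 and 24, and to 141 and 141 with median-of-ratios size factors. Relative to the median gene under ERCC scaling, SPDEF stood at 0.84, GATA2 at 0.41 and GRHL2 at 0.31, followed by CREB3L4 at 0.17, HOXB13 at 0.08 and FOXA1 at -0.10. A scaling by library moves all genes of a library alike and taking the median away undoes it, so these values are no separate check. The spike-in share differed within the si-NT group at 144 h, at 0.805% and 1.34%.

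**Figure D3:**
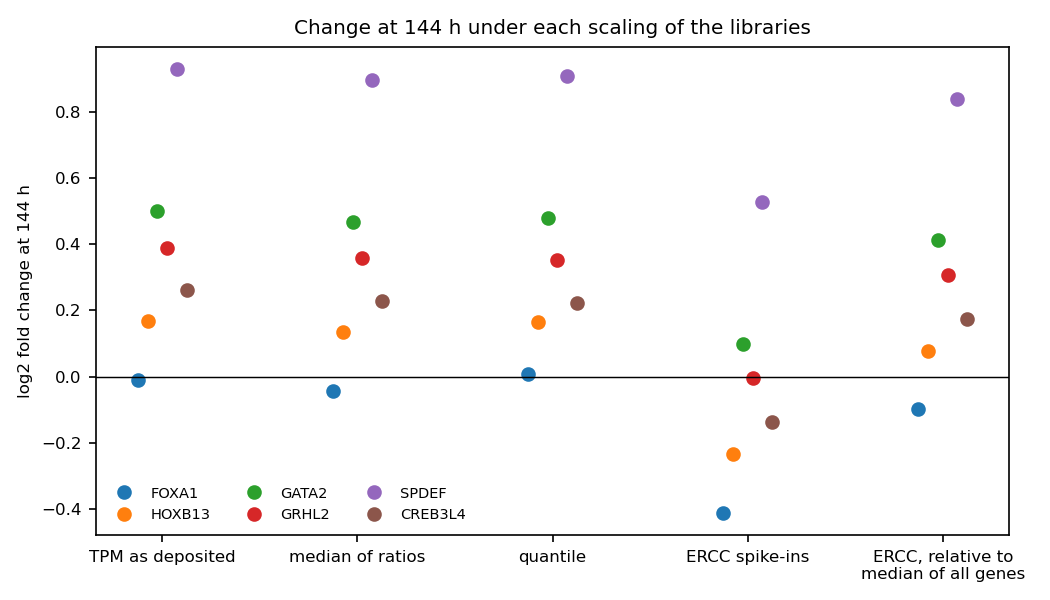
Log2 fold change of the 6 factors at 144 h (y axis) under each scaling of the libraries (x axis), 1 point per factor. SPDEF and GATA2 stay above 0 throughout, GRHL2, CREB3L4 and HOXB13 lie above 0 except with the ERCC spike-ins, and FOXA1 lies near 0 or below it.

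The closest relatives of the 6 factors moved in both directions. Of 31 listed paralogues, 14 were expressed enough to be tested and 17 stayed under 1 TPM in every library. Of the 14, 1 was called higher at 72 h (ELF5), and at 144 h 4 were called higher (CREB3, ELF3, ELF5 and HOXC13) and 3 lower (EHF, GRHL1 and HOXB9). Among all genes, 1.13% were called higher at 72 h, and 13.6% higher and 10.8% lower at 144 h. The median log2 fold change of the 14 at 144 h was -0.07 against 0.03 over all genes. With ERCC scaling 0 were called higher and 2 lower (EHF and HOXB9). FOXA2 and GATA1 were listed at 0 and FOXA3 reached 0.16 TPM at most, and GATA6 was between 0.96 and 2.17 TPM, so FOXA1 and GATA2 were the main members of their groups by level.

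The epithelial ETS factors, which share a DNA-binding domain with SPDEF, divided. EHF, a factor of epithelial differentiation, was at 189 and 149 TPM in si-NT at 144 h, 54.8 and 53.5 with siRNA 2, and 43.8 and 23.5 with siRNA 3. All depleted libraries were thus far below si-NT, as they were at 72 h, where si-NT had 154 and 135 TPM and depleted cells 63.8, 97.7, 97.1 and 62.8. EHF fell by 1.98 ± 0.31 on the log2 scale at 144 h (limma adjusted p = 0.00129; -0.87 and adjusted p = 0.199 at 72 h), and by 2.37 with ERCC scaling (adjusted p = 0.00247).

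ELF5, known as a factor of secretory alveolar cells in the breast, was at 15.6 and 15.1 TPM in si-NT at 144 h, 35.9 and 36.5 with siRNA 2, and 36.6 and 31.3 with siRNA 3. It rose by 0.54 ± 0.10 at 72 h (limma adjusted p = 0.0305) and by 1.14 ± 0.10 at 144 h (adjusted p = 5.82e-05), a difference between the time points of 0.60 that was not called (adjusted p = 0.223). The 72 h call was lost without any 1 of 8 libraries and the 144 h call held whichever library was left out, while ERCC scaling gave 0.75 at 144 h (adjusted p = 0.165). ELF3, an epithelial ETS factor too, was at 67.8 and 63.0 TPM in si-NT at 144 h and at 182, 141, 118 and 128 in depleted cells. Its log2 fold change of 1.09 ± 0.26 passed at 144 h (adjusted p = 0.0117), but not without replicate 1 or 2 of si-NT at 144 h (adjusted p up to 0.103) or with ERCC scaling (0.69, adjusted p = 0.241).

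**Figure D4:**
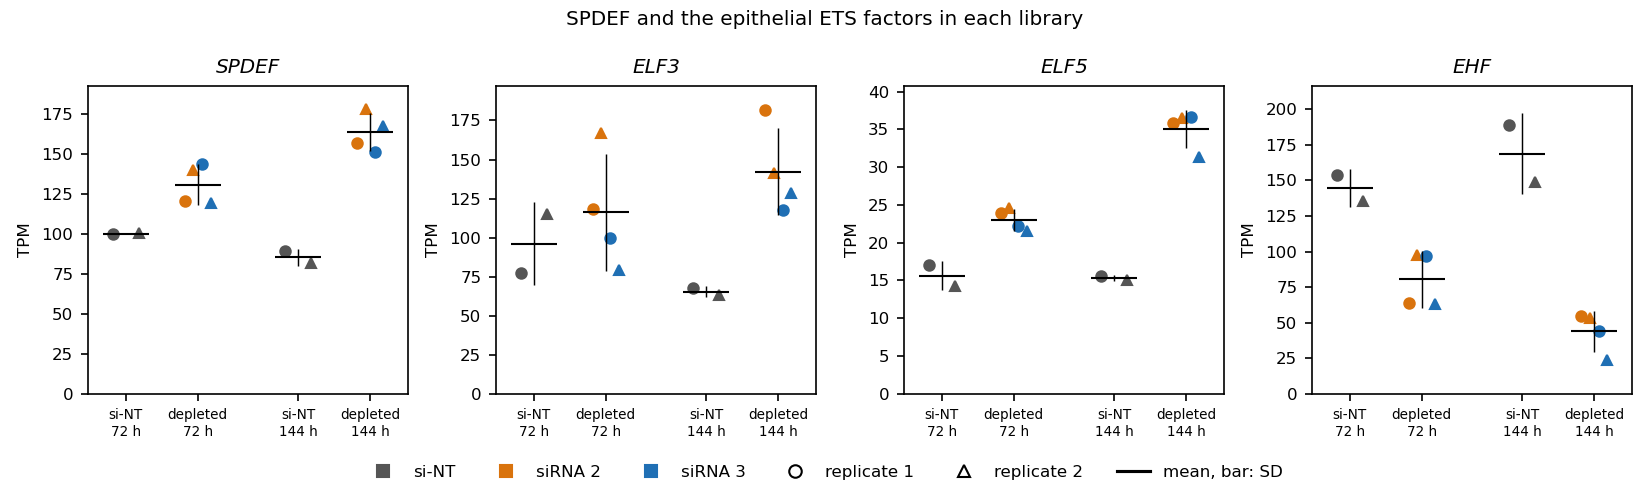
TPM of SPDEF, ELF3, ELF5 and EHF in the 12 libraries (y axes start at 0), by group on the x axis, with horizontal lines for the group mean and vertical bars for the SD. At 144 h all depleted libraries of SPDEF, ELF3 and ELF5 lie above both si-NT libraries, and those of EHF, at 23.5 to 54.8 TPM, lie below them.

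Among the other families, HOXC13, a posterior HOX gene of the same paralogue group as HOXB13, was at 5.71 and 7.01 TPM in si-NT at 144 h and at 14.6, 12.6, 13.2 and 21.5 in depleted cells. Its log2 fold change was 1.14 ± 0.19 (limma adjusted p = 0.00174; 0.77 and adjusted p = 0.1003 with ERCC scaling). HOXB9, a neighbour of HOXB13 in the HOXB cluster, was at 5.02 and 6.48 TPM in si-NT and at 2.25, 2.69, 2.27 and 2.85 in depleted cells, and fell by 0.94 ± 0.14 (adjusted p = 0.000881). GRHL1 was lower by 0.63 ± 0.14 in depleted cells at 144 h (limma adjusted p = 0.0084), at a mean of 3.95 TPM against 6.64 in si-NT. The call was lost without replicate 2 of si-NT at 144 h. At 72 h its means were 4.2 TPM in depleted cells and 4.1 in si-NT, so si-NT moved more between the times than depleted cells did. CREB3, the founding member of the family of CREB3L4, rose by 0.48 ± 0.12 (adjusted p = 0.0157, up to 0.120 without a si-NT library of 144 h; 0.09 with ERCC scaling). UBP1, the most abundant paralogue of GRHL2 on the list, was at 51.3 and 51.7 TPM in si-NT at 144 h, 26.8 and 30.0 with siRNA 2, and 45.5 and 36.1 with siRNA 3, and did not pass (adjusted p = 0.0557).

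Of 24 other transcription factors of prostate cells, 21 were tested. At 72 h 1 was called, SOX9, and at 144 h 4 were called higher, among them HOXC6, SOX9 and XBP1, and 3 lower (MEIS1, NFIA and TRPS1), with a median log2 fold change of -0.03. The shares over all genes were 1.68% at 72 h, and 13.6% higher and 10.8% lower at 144 h. SOX9, an epithelial progenitor factor, was at 9.06 and 9.93 TPM in si-NT at 144 h and at 27.4, 21.6, 24.6 and 25.2 in depleted cells. It rose by 0.88 ± 0.17 at 72 h (limma adjusted p = 0.029, lost without any 1 of 6 libraries) and by 1.29 ± 0.17 at 144 h (adjusted p = 0.000521). XBP1, a factor of the secretory stress response, rose by 0.79 ± 0.20 at 144 h (adjusted p = 0.0162), a call that was lost without either si-NT library of 144 h. With ERCC scaling 0 were called higher and 2 lower (MEIS1 and NFIA), and the call of TRPS1 was lost without any 1 of 7 libraries.

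Of the genes that define luminal cells, some were called higher at 144 h and none were called lower. KLK2 and FOLH1 were below both si-NT libraries in every depleted library at that time without being called. All depleted libraries were below both for 22.5% of all genes. The list had 21 symbols, of which 18 were found and tested, CD24 and TARP were not matched and ACPP is an older symbol of ACP3. At 72 h 0 of 18 were called, and at 144 h 8 were called higher, among them ACP3, CDH1, CLDN4, CLDN7, KLK4, KRT8 and SLC45A3, and 0 lower, with a median log2 fold change of 0.56. Over all genes, 1.68% were called at 72 h, and 13.6% higher and 10.8% lower at 144 h. KLK4, a kallikrein protease of prostate secretion, was at 240.5 and 125 TPM in si-NT at 144 h and at 704, 916, 624 and 575 in depleted cells. Its log2 fold change was 1.99 ± 0.31 (limma adjusted p = 0.00129). ACP3, prostatic acid phosphatase, was at 6.39 and 4.63 TPM in si-NT and at 20.6, 25.8, 31.7 and 17.8 in depleted cells, a log2 fold change of 1.92 ± 0.27 (adjusted p = 0.000829). Both also passed with ERCC scaling, at 1.59 and 1.55, and were the 2 of 18 that did. SLC45A3 (1.43 ± 0.29, adjusted p = 0.00562) did not pass without replicate 2 of si-NT at 144 h (adjusted p = 0.0941).

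KRT8, a keratin of simple epithelium, was at 307 and 303 TPM in si-NT at 144 h and at 415, 446, 447 and 500.3 in depleted cells, and rose by 0.56 ± 0.08 (limma adjusted p = 0.00109). Keratin genes have near-identical pseudogenes, so these counts may be split. Members of the list that did not pass included KLK3, which encodes prostate-specific antigen, at 841 and 397 TPM in si-NT at 144 h and 572, 631, 595 and 494 in depleted cells. KLK2, a related protease, was in each depleted library below the si-NT libraries collected with it, without passing (-1.18 ± 0.48, adjusted p = 0.0937 at 144 h). The paper, with another method (edgeR on counts normalised to the spike-ins), lists KLK2 as down-regulated at both time points. EPCAM, an epithelial surface protein, was at 174.0 ± 11.6 TPM in si-NT (n = 2) and 187 ± 6.69 in depleted cells (n = 4) at 144 h. KRT18 was at 345 and 344 TPM in si-NT at 144 h and at 348 to 386 in depleted cells. MSMB was near 1 TPM and lower at 72 h, at 2.24 and 0.96 TPM in si-NT and 0.08 to 0.88 in every depleted library. At 144 h it overlapped, at 0.17 and 3.3 TPM in si-NT and 0.05 to 0.72 in depleted cells. Neither KRT18 nor MSMB was called at either time.

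**Figure D5:**
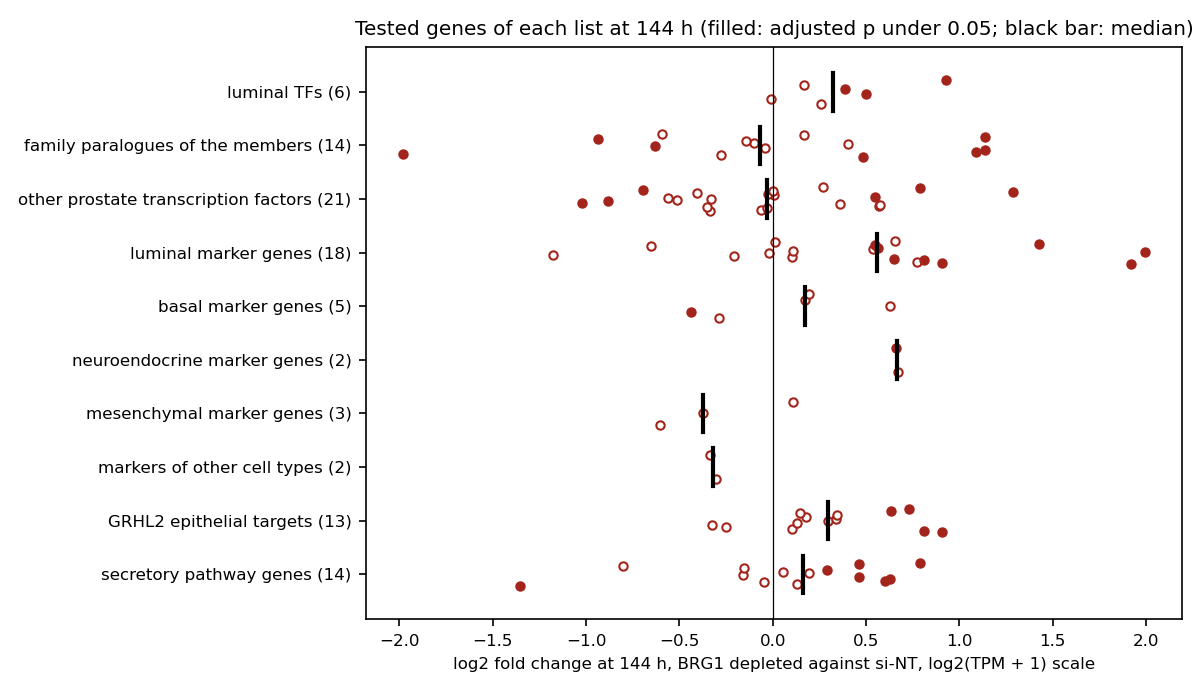
Log2 fold change at 144 h on the log2(TPM + 1) scale (x axis) of each tested gene of the 10 lists (y axis, number tested in parentheses), with filled points for an adjusted p under 0.05 and black bars for the median. The luminal marker genes have a median of 0.56 and the paralogues one of -0.07. With ERCC scaling the medians of the 6 factors, the GRHL2 targets, the secretory genes and the basal markers turn negative, and the median of all genes moves from 0.03 to -0.31.

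Most markers of other lineages were under 1 TPM in every library, with exceptions in each list. Of 15 basal markers, 9 were under 1 TPM in every library, with TP63 at 0.01 TPM at most and KRT5 at 0.13 TPM at most. Of the 5 tested, 1 was called at 144 h, where 24.4% of all genes were. It was ITGA6, an integrin, which fell by 0.44 ± 0.14 (limma adjusted p = 0.0361, lost without either si-NT library of 144 h or replicate 1 of siRNA 3 at 72 h). The median log2 fold change of the 5 was 0.17, against 0.03 over all genes, and -0.22 with ERCC scaling, against -0.31. ITGB4, another integrin, was at 1.78 and 1.36 TPM in si-NT at 144 h and at 2.27 to 4 in depleted cells, all higher, and did not pass (0.63 ± 0.26, adjusted p = 0.105). All depleted libraries were above both si-NT libraries for 26.1% of all genes. The mean of ITGB4 in si-NT was 2.8 TPM at 72 h and 1.6 at 144 h, and in depleted cells 3.1 and 3.0. LAMA3, a laminin chain, was the most abundant, at 19.3 to 34.96 TPM over the 12 libraries. The 15 genes summed to between 43.2 and 46.4 TPM in si-NT and between 36.4 and 53.2 in depleted cells at 144 h. Of 14 neuroendocrine markers, 12 were under 1 TPM in every library and INSM1 and SOX2 were listed at 0. The 2 tested were SYP and ENO2. Of these, 0 were called at 72 h and 1 at 144 h, against 1.68% and 24.4% of all genes. SYP, a synaptic vesicle protein, was at 0.48 and 0.39 TPM in si-NT at 144 h and at 1.36, 1.34, 1.19 and 1.18 in depleted cells, and passed (0.66 ± 0.14, adjusted p = 0.00753), at a level near 1 TPM. Its call was lost without replicate 2 of si-NT at 144 h and with ERCC scaling (0.48, limma adjusted p = 0.284). The summed level of the 14 was between 6.02 and 8.26 TPM in si-NT and between 8.90 and 17.6 in depleted cells at 144 h, against 10.9 to 21.3 and 7.75 to 24.1 at 72 h. Most of that sum came from ENO2, at 5.36 to 22.6 TPM over the 12 libraries. ENO2 was at 7.53 and 5.36 TPM in si-NT at 144 h and at 10.5, 16.0, 10.4 and 7.44 in depleted cells. It was not called at either time.

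Of 11 mesenchymal markers, 3 were tested and 0 were called in limma at either time, with 1 and 2 at an unadjusted p under 0.05, and CDH2, TWIST2 and CDH11 were listed at 0. Over all genes, 1.68% were called at 72 h and 24.4% at 144 h, and 14.3% and 36.8% had an unadjusted p under 0.05. ZEB1, too low to be tested, was at 0.09 and 0.09 TPM in si-NT at 144 h and at 1.01, 0.42, 0.26 and 0.16 in depleted cells, all higher. Most of the summed level of the 11 came from VIM and FN1. VIM, an intermediate filament protein, was at 53.7 to 96.4 TPM over the 12 libraries. FN1, which encodes fibronectin, was at 64.6 and 73.6 TPM in si-NT at 144 h and at 55.9, 58.9, 33.7 and 37.2 in depleted cells. It was below both si-NT libraries in every depleted library at both times and did not pass (-0.72 ± 0.24, adjusted p = 0.183 at 72 h, and -0.60 ± 0.24, adjusted p = 0.0941 at 144 h). All depleted libraries were below both for 6.93% of all genes at 72 h and for 22.5% at 144 h. The 11 genes summed to between 123 and 149 TPM in si-NT and between 105 and 127 in depleted cells at 144 h. Of 13 markers of other cell types (immune, endothelial, fibroblast and smooth muscle), 12 were found and 2 were tested. Of these 2, 0 were called at either time, also at an unadjusted p under 0.05, against the same shares of all genes. CD3E and COL1A2 were listed at 0. COL1A1 was the most abundant of them, at 3.1 to 9.11 TPM over the 12 libraries.

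Genes that GRHL2 is known to activate in epithelia were listed as 13 genes, and all 13 were tested. Of these, 1 was called at 72 h (ST14), where 1.68% of all genes were. At 144 h 4 were called higher (CDH1, CLDN4, SPINT1 and ST14) and 0 lower, against 13.6% and 10.8% of all genes. Their median log2 fold change at that time was 0.30, against 0.03 over all genes. With ERCC scaling it was -0.07, against -0.31 over all genes, and 0 were called. CDH1, which encodes the adhesion protein E-cadherin, was at 124 and 111 TPM in si-NT at 144 h and at 248, 228, 218 and 192 in depleted cells, a log2 fold change of 0.91 ± 0.13 (limma adjusted p = 0.000745). ST14, a membrane serine protease, was at 78.2 and 66.2 TPM in si-NT and at 113, 124, 118 and 125 in depleted cells. It rose by 0.73 ± 0.12 (adjusted p = 0.00142), and its 72 h call (0.52, adjusted p = 0.048) was lost without any 1 of 11 libraries. SPINT1, an inhibitor of that protease, rose by 0.63 ± 0.13 (adjusted p = 0.0063, and 0.0682 without replicate 2 of si-NT at 144 h). CLDN4, a claudin of tight junctions, rose by 0.81 ± 0.22 (adjusted p = 0.0218, up to 0.150 without a si-NT library of 144 h). Among those not called, ESRP1 was lower in every depleted library at 144 h, at 22.8 to 29.7 TPM against 31.8 and 30.8 in si-NT. RAB25, OVOL1, MARVELD3 and PROM2 were above both si-NT libraries in every depleted library at that time. All depleted libraries were above both for 26.1% of all genes and below both for 22.5%.

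The secretory genes, with which SPDEF and CREB3L4 are associated, were listed as 16 genes, of which 14 were tested and AGR3 was listed at 0. At 72 h 0 were called, where 1.68% of all genes were. At 144 h 6 were called higher (KDELR3, PDIA5, SEC23A, SSR4, TMED3 and XBP1) and 1 lower (AGR2), against 13.6% and 10.8% of all genes. The median log2 fold change was 0.16, against 0.03 over all genes. With ERCC scaling it was -0.21, against -0.31 over all genes, and 0 were higher and 1 lower. PDIA5, a protein disulphide isomerase, rose by 0.63 ± 0.13 (limma adjusted p = 0.00508), and KDELR3, a receptor that retrieves proteins to the endoplasmic reticulum, by 0.60 ± 0.16 (adjusted p = 0.0188). Each of the 6 calls was lost without at least 1 of the si-NT libraries of 144 h, and SSR4 turned to -0.11 with ERCC scaling. AGR2, a secretory isomerase, was at 6.88 and 6.30 TPM in si-NT at 144 h and at 1.53, 1.50, 2.52 and 2.49 in depleted cells (-1.35 ± 0.45, adjusted p = 0.0483), a call that was lost without any 1 of 8 libraries.

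The lists share genes, among them CDH1, CLDN4 and XBP1, so their counts are not independent. Over all lists, 31 genes other than the 6 factors were called at 144 h, of which 23 were higher and 8 lower. The share of all genes called at 144 h was 24.4% (13.6% higher and 10.8% lower), and the lists were chosen with earlier results known. Of the 31 genes, 12 were called whichever library was left out, and 19 lost the call without a si-NT library of 144 h.

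The genes whose pattern over the 12 libraries was most like each factor were taken by Pearson's r of log2(TPM + 1) among 10115 genes, as a description. The 3 for SPDEF included NECAB3 (r = 0.979) and SGSM2 (0.979). For GATA2 they were MFGE8 (r = 0.969), TM7SF2 (0.966) and PINK1 (0.963). The 3 for GRHL2 included FZD1 (r = 0.970) and C1orf198 (0.963). FOXA1 was followed by NSD1 (r = 0.946), SRPK2 (0.936) and CAMSAP2 (0.936). The 3 for HOXB13 included ZNF747 (0.976) and PHF12 (0.933). For CREB3L4 they were TMEM254-AS1 (r = 0.909), an antisense gene whose reads may come from the other strand, DVL2 (0.906) and PRMT7 (0.903). The libraries share groups and scaling, so high r values arise from either.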

How the data were processed

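RNA-seq of 12 LNCaP libraries was used. As the methods describe, the authors aligned reads to hg19 (GRCh37) with STAR (2.4.0j in the submitters' processing notes, which also name Trim Galore 0.11.2 and FastQC), counted them with featureCounts, normalised with ERCC spike-ins and deposited TPM on GENCODE genes, in 63568 rows of genes and 92 of spike-ins. TPM keeps no depth, so no count test was run, and precision rests on the number of libraries. No column was left unmatched, and no pair of libraries was identical. The table numbers the siRNAs 2 and 3, and the labels 1 and 2.

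The 16337 genes that reached 1 TPM in 2 or more libraries were analysed as log2(TPM + 1) with limma 3.58.1 (R 4.3.3; lmFit, eBayes with trend) in 4 groups with a pooled variance (prior degrees of freedom 3.53). Fold changes on this scale understate those of low genes. The siRNAs were compared in a fit with 6 groups. Adjusted p-values are limma's with Benjamini-Hochberg adjustment over all genes tested, a call is an adjusted p under 0.05, and intervals are at 95%. Tables were made with Python 3.11.15, NumPy 2.4.6, pandas 2.3.3 and matplotlib 3.10.9, and the fit was tested on simulated data.

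The members and lists were chosen with earlier results of these data known. Genes named are the 6 factors, SMARCA4, up to 4 called genes per list and direction by size of change, the most abundant paralogue of each family and the 3 genes most like each factor. KLK2, KLK3, KRT18, EPCAM, FOLH1, MSMB, ITGB4, LAMA3, VIM, FN1 and the lineage markers at or near 0 were added with their values seen. So were ENO2, ZEB1, COL1A1, ESRP1, RAB25, OVOL1, MARVELD3, PROM2, TFF3 and SEC61A1. Alternatives were another pseudocount, scaling, filter or set of samples, a replicate block and each library left out. Gene positions are those of GENCODE v44lift37 (GRCh37), and promoters from RefSeq on GRCh38.p14. Some genes that this rule takes are not reported here, and protein sequences were not used.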

Additional observations from a re-analysis of the deposited data

Results flagged for a closer look

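HOXB13 in BRG1 depleted cells at 72 h had 1 library far from the other 3. Replicate 2 of siRNA 2 was at 215 TPM, against 149 to 154 TPM, and its gap to the nearest library was 0.931 of the range of the group. The same library was also the highest depleted library of 72 h for FOXA1, GATA2 and GRHL2, and not for SPDEF or CREB3L4. Its gaps for FOXA1, GATA2 and GRHL2, at 0.718, 0.624 and 0.711 of the range, were not flagged. The limit for a group of 4 libraries passes about 1 in 20 groups by chance, and 12 groups were examined. Without that library the log2 fold change of HOXB13 at 72 h was 0.16 in place of 0.28. Leaving out a si-NT library of 72 h moved it further, to 0.09 without replicate 1 and to 0.48 without replicate 2.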

How the results depend on the processing

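At 72 h, 0 of the 6 factors were called under every alternative except with si-NT of both time points combined, where 2 were (SPDEF and CREB3L4). At 144 h, 3 were called, and leaving out each library in turn gave 1 to 3, with SPDEF alone left without replicate 1 or replicate 2 of si-NT at 144 h. With scaling to the ERCC spike-ins 0 were called. Between depleted cells at 144 h and at 72 h the count was 0, and it was 3 with median-of-ratios size factors, 2 with quantile normalisation, 1 with a mean TPM of at least 5 and 0 to 2 when each library was left out. The cause was not tested. The other comparisons (difference between the time points, si-NT over time and the siRNAs) gave 0 of 6 throughout.

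With ERCC scaling the sign turned for FOXA1 (-0.029) and GATA2 (-0.021) at 72 h and for HOXB13 (-0.23), GRHL2 (-0.0053) and CREB3L4 (-0.14) at 144 h. FOXA1 at 144 h turned with quantile normalisation (0.0083), with si-NT combined (0.0059) and when some libraries were left out (-0.053 to 0.045). The lists at 144 h with ERCC scaling were recomputed after seeing the data.

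Same-numbered libraries deviated together at r over 0.1 in 2 of 15 pairs of conditions (-0.23 to 0.30), so the numbers were not read as a pairing. With the number as a replicate block, 0 factors were called at 72 h and 3 at 144 h, and over all genes 179 against 275 at 72 h and 3692 against 3983 at 144 h.

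The calls over all genes moved more. At 72 h they were 32 with ERCC scaling, 18 with the 6 libraries of the time point alone, 1206 with si-NT combined and 39 to 279 with each library left out. At 144 h they were 752 with ERCC scaling and 1150 to 4309 with each library left out. TPM holds no depth, so counting error cannot be given.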
